A study of Mus musculus with 12 samples.

Results

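Genes of glucose production and fructose use in the kidney, 7 of the 28991 genes in the count table, were followed across 4 groups of 3 mice. They were chosen by name and matched by Ensembl identifier, and each had 1 identifier in the table and passed the filter on low counts. Pcx encodes pyruvate carboxylase, Pck1 and Pck2 the cytosolic and mitochondrial phosphoenolpyruvate carboxykinases, Fbp1 fructose-1,6-bisphosphatase, G6pc the catalytic subunit of glucose-6-phosphatase, Slc37a4 the glucose-6-phosphate carrier that feeds it, and Khk ketohexokinase, which opens fructose breakdown.

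Kidneys came from male BALB/c mice, an inbred laboratory strain, aged 8 weeks, and whole-kidney RNA was sequenced, so every value is an average over all kidney cell types. The combination group had dichloroacetate at 250 mg per kg into the peritoneum each day for 5 days, and then a single injection of cisplatin at 20 mg per kg with dichloroacetate. The cisplatin group had saline for 5 days and then the same cisplatin injection, and both groups were killed 24 h later. The dichloroacetate group had 250 mg per kg daily for 6 days, and the saline group, the study's control, had saline daily for 6 days. Cisplatin is a platinum chemotherapy drug that injures the kidney tubule, dichloroacetate inhibits the pyruvate dehydrogenase kinases, and the study, by its title, is about the effect of dichloroacetate on kidney toxicity of cisplatin. The labels do not give the feeding state of the mice or the hour of sampling. Library totals ran from 29505929 to 35082408 counts in the combination, 29614283 to 35925471 in cisplatin, 41525403 to 62237514 in dichloroacetate and 38236592 to 55832441 in saline.

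Gluconeogenesis makes glucose from lactate, glutamine and glycerol. Pyruvate carboxylase turns pyruvate into oxaloacetate, phosphoenolpyruvate carboxykinase turns oxaloacetate into phosphoenolpyruvate, and most of the steps between that and fructose-1,6-bisphosphate are glycolytic reactions run backwards. Fructose-1,6-bisphosphatase and glucose-6-phosphatase then complete the route in steps that glycolysis cannot reverse. In the kidney this pathway is housed in the proximal tubule, where it is also tied to ammonia production from glutamine, and the same cells take up and phosphorylate fructose.

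The promoters of Pck1 and G6pc are shown because these genes had the largest differences between combination and cisplatin mice of the 7, and that of Pck2 because it encodes the same activity as Pck1 and did not fall. The windows run from 250 bases before to 50 bases after the transcript start, 5′ to 3′ on the plus strand, and come from RefSeq, build GRCm38.p6. They cover chr2:173152823-173153122 for Pck1, chr11:101367466-101367765 for G6pc and chr14:55540016-55540315 for Pck2. Capitals mark letters that match 1 of the 6 motifs searched.
Pck1: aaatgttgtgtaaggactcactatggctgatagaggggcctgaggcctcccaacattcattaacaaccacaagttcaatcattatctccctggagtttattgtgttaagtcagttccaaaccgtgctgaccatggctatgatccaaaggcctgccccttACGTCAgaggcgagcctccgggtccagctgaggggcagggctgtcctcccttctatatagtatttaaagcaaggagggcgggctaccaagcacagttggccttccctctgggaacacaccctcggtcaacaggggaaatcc
G6pc: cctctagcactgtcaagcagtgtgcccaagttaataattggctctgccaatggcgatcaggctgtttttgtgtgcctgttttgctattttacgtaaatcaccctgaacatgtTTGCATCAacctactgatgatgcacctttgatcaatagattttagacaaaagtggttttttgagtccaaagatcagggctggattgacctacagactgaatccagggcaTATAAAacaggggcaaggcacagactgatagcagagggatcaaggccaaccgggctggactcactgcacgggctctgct
Pck2: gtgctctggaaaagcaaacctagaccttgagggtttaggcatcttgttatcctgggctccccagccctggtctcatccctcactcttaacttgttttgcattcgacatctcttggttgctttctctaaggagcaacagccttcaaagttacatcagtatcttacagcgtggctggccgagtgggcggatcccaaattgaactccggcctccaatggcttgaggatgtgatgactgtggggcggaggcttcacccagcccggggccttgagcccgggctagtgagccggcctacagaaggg
The motifs, searched on both strands, were the cAMP response element core ACGTCA, the HNF4 site CAAAGTCCA, the forkhead site TGTTTAC, the ATF4-CEBP composite TTGCATCA, the E-box CACGTG and the TATA box TATAAA. They were picked with these sequences in view, and no match overlapped another.

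The Pck1 window held ACGTCA at -91 to -86 from the start. The G6pc window held TTGCATCA at -138 to -131 and TATAAA at -29 to -24. No motif of the 6 matched the Pck2 window. Of the 32851 mouse promoter windows of this length, 7.51% held ACGTCA, 0.895% TTGCATCA and 13.6% TATAAA. A match is a string of letters only and says nothing of binding. All 7 genes had at least 1 window in the RefSeq table, 10 windows in all. Among the others, Khk held CACGTG at -71 to -66, and the upstream window of Pcx held CACGTG at -248 to -243. Of the 3 Slc37a4 windows, the one furthest upstream held ACGTCA, on the minus strand, at -61 to -56, the next held the same match at -214 to -209, and the last held TATAAA at -32 to -27. The other Pcx window and that of Fbp1 held none of the 6 motifs, and CACGTG was in 7.15% of all windows.

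Levels are given as CPM, the count relative to its library's total on the usual CPM scale, with totals adjusted by the trimmed mean of M-values, and as CPM per kb of exon where genes are compared with each other. Each log2 fold change has its standard error (SE), and each adjusted p is the Benjamini-Hochberg value of the 2-sided edgeR quasi-likelihood test over the 20370 genes tested. Calls were made where that value was under 0.05. The comparisons share libraries, so they are not independent of each other.

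**Figure D1:**
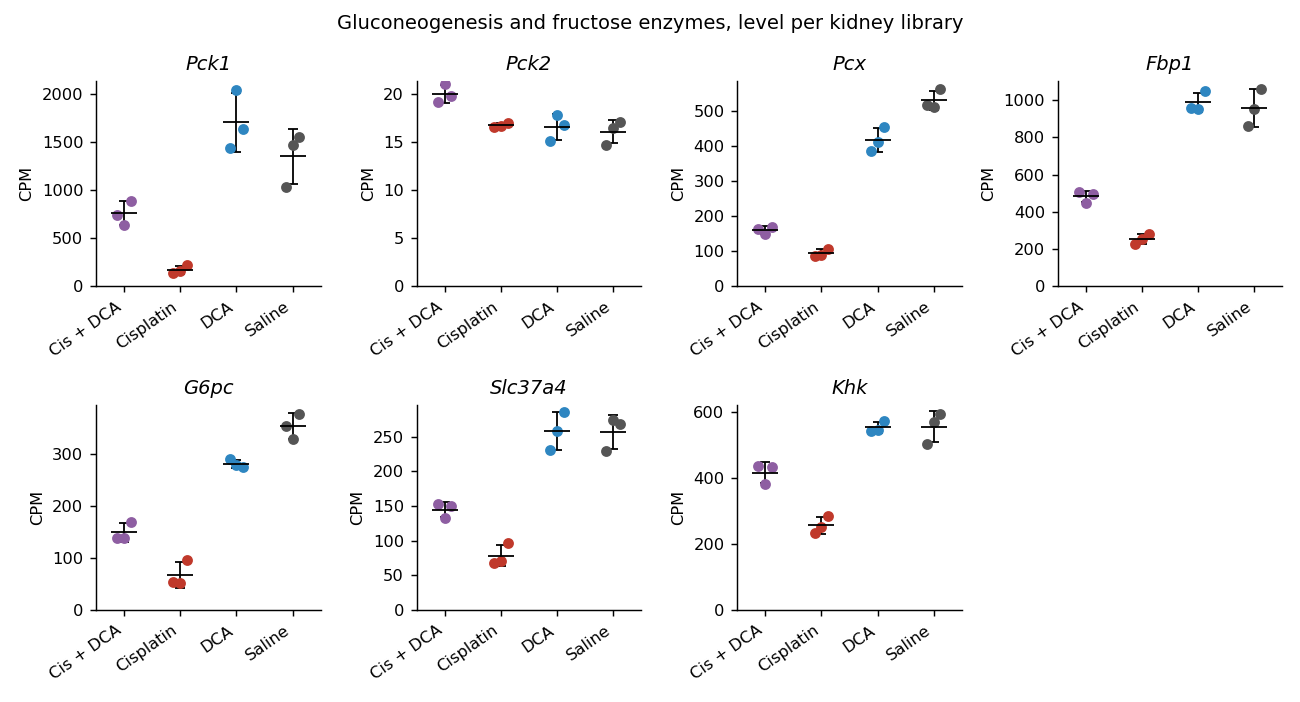
Level of each of the 7 genes in CPM (vertical axes, from 0) in each library, with points for mice, a dash for the group mean and bars for the SD (n = 3). For 6 genes the cisplatin mice are lowest and the combination mice lie between them and both groups without cisplatin, whereas Pck2 is highest in the combination mice, at 19.2 to 21.1 CPM.

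Cisplatin alone lowered 6 of the 7 genes, by 2.17-fold for Khk to 7.91-fold for Pck1, and left Pck2 uncalled. Of all genes tested, 60.1% were called in this comparison, 30.4% as lower and 29.7% as higher. The cisplatin and saline mice did not overlap for the same 6, against 64.8% of all genes. With dichloroacetate given before and with cisplatin, all 7 were called higher than with cisplatin alone, where 31.6% of all genes were called and 18.1% were called higher. The combination and cisplatin mice did not overlap for any of the 7, against 46.8% of all genes. The 6 that cisplatin lowered stayed below saline in the combination and Pck2 was above it, where 40.2% of all genes were called, 19.6% as lower and 20.6% as higher. None of the 7 overlapped between combination and saline mice, against 50.3% of all genes without overlap. For the interaction, the log2 cisplatin response with dichloroacetate minus that without it, 6 of the 7 were called, all in the positive direction. The share of all genes was 18.6%, with 11.4% positive and 7.15% negative.

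Pck1 lies on chromosome 2, 173153048 to 173159273 (ENSMUSG00000027513, build mm10), and is the carboxykinase commonly taken as the rate-setting step of the pathway. It stood at 743, 641 and 891 CPM in the combination mice, at 137, 156 and 219 CPM in cisplatin mice, at 1441, 2038 and 1634 CPM in dichloroacetate mice, and at 1028, 1468 and 1555 CPM in saline mice. The combination mice lay between the 3 cisplatin mice and the saline mice with no overlap on either side, while the dichloroacetate and saline mice overlapped. Means were 758 ± 126 CPM in the combination, 171 ± 43.0 in cisplatin, 1704 ± 305 in dichloroacetate and 1351 ± 282 CPM in saline mice (SD, n = 3 each). The log2 fold change was -2.98 (SE 0.21, adjusted p = 4e-08) for cisplatin against saline and 2.15 (SE 0.20, adjusted p = 8.5e-06) for the combination against cisplatin, a 4.44-fold difference. Pck1 was among the 0.334% of all genes tested that differed most between combination and cisplatin mice. Against saline the combination remained lower by 1.78-fold (log2 -0.83, SE 0.19, adjusted p = 0.0037).

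Pck2, the mitochondrial isozyme, is on chromosome 14, 55540266 to 55551242 (ENSMUSG00000040618). It gave 19.2, 21.1 and 19.9 CPM in the combination mice, 16.6, 16.7 and 17.1 CPM in cisplatin mice, 15.1, 17.8 and 16.9 CPM in dichloroacetate mice and 14.8, 16.5 and 17.1 CPM in saline mice. The 3 combination mice were above all 9 others, and the remaining groups overlapped. Cisplatin mice did not pass the test against saline (log2 0.06, SE 0.08, adjusted p = 0.52). The combination was higher than saline by 0.32 (SE 0.07, adjusted p = 0.0043) and higher than cisplatin by 0.26 (SE 0.08, adjusted p = 0.018). The call against cisplatin was lost (adjusted p = 0.056 to 0.080) when cisplatin replicate 1 or 2, or combination replicate 2 or 3, was left out, and the interaction did not pass (log2 0.22, SE 0.11, adjusted p = 0.18). An antisense gene, Gm10876, shares 53 exon bases with Pck2. Gm10876 is not among the genes of the count table, and the library kit is not stated to keep strand. Reads of Gm10876 from that stretch may therefore be included in the Pck2 counts.

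Within a library, the ratio of Pck2 to Pck1 compares the 2 isozymes of a single reaction. Per kb of exon its log2 was -6.46, -6.11 and -6.67 in the combination mice, -4.23, -4.41 and -4.87 in cisplatin mice, -7.76, -8.02 and -7.79 in dichloroacetate mice and -7.31, -7.66 and -7.69 in saline mice. Pck1 was thus the far more abundant transcript in all 12 libraries, and the ratio was closest to even in the cisplatin mice. It was higher by 3.05 log2 units in cisplatin than in saline mice and differed by -1.91 between combination and cisplatin mice and by -0.30 between dichloroacetate and saline mice. In each of these 3 comparisons the groups did not overlap, and the exact 2-sided permutation test gave p = 0.1 (0.1 after adjustment), the smallest value that 3 against 3 mice allow. The exon length of Pck2 in the annotation, 7.81 kb, includes transcripts annotated as retained introns, so its level per kb may be a low estimate, which moves the ratio but not the differences between groups.

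Pcx, whose product supplies the oxaloacetate for the carboxykinase step, is on chromosome 19, 4510472 to 4621752 (ENSMUSG00000024892). Its levels were 163, 148 and 170 CPM in the combination mice, 88.0, 90.9 and 108 CPM in cisplatin mice, 388, 412 and 455 CPM in dichloroacetate mice and 518, 514 and 563 CPM in saline mice. All 4 groups were separate from each other. Cisplatin lowered it 5.56-fold (log2 -2.48, SE 0.09, adjusted p = 1.1e-10), and the combination was 1.68-fold above cisplatin (log2 0.75, SE 0.08, adjusted p = 3.3e-05). In the combination it was still 3.31-fold below saline (log2 -1.73, SE 0.09, adjusted p = 7e-09), the furthest below saline of the 7 genes there. At 111.3 kb Pcx also has the longest genomic span of the 7, the others covering 6.1 to 23.5 kb. The 1301 tested genes that span 100 to 200 kb had a median log2 fold change of -0.42 for cisplatin against saline, against 0.12 for 7972 genes of up to 10 kb, and the part of span in the fall of Pcx was not tested.

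Fbp1, on chromosome 13, 62864753 to 62888282 (ENSMUSG00000069805), had 506, 450 and 494 CPM in the combination mice, 225, 252 and 280 CPM in cisplatin mice, 959, 954 and 1048 CPM in dichloroacetate mice and 859, 950 and 1060 CPM in saline mice. Both cisplatin-injected groups were separate from each other and from the groups without cisplatin, which overlapped. Cisplatin lowered Fbp1 3.79-fold (log2 -1.92, SE 0.09, adjusted p = 1.2e-09), and the combination exceeded cisplatin by 1.91-fold (log2 0.93, SE 0.09, adjusted p = 9.9e-06) while remaining 1.98-fold below saline (adjusted p = 1.6e-06). Its neighbour on the chromosome, Fbp2, which encodes the isozyme first known from muscle, was higher with cisplatin. Fbp2 averaged 54.1 ± 2.97 CPM in the combination, 43.8 ± 4.23 in cisplatin, 11.9 ± 0.881 in dichloroacetate and 13.7 ± 2.60 CPM in saline mice (SD, n = 3 each). Its log2 fold change was 1.68 (SE 0.11, adjusted p = 2.4e-08) for cisplatin against saline and 1.99 (SE 0.11, adjusted p = 1.8e-08) for the combination against saline. Between combination and cisplatin mice it was higher, as Fbp1 was, by 0.30 (SE 0.10, adjusted p = 0.039).

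The last step of glucose release needs G6pc and Slc37a4 together in the endoplasmic reticulum. G6pc, on chromosome 11, 101367561 to 101377903 (ENSMUSG00000078650), had 139, 139 and 169 CPM in the combination mice, 54.0, 51.5 and 95.8 CPM in cisplatin mice, 289, 278 and 274 CPM in dichloroacetate mice and 353, 327 and 376 CPM in saline mice. The groups did not overlap, and cisplatin replicate 3 stood well above the other 2 cisplatin mice. The log2 fold change was -2.39 (SE 0.19, adjusted p = 1.3e-07) for cisplatin against saline and 1.15 (SE 0.18, adjusted p = 0.00034) for the combination against cisplatin. Without cisplatin replicate 3 these values were -2.74 (SE 0.10) and 1.5 (SE 0.09). The combination was 2.37-fold below saline (adjusted p = 0.00011).

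Slc37a4, on chromosome 9, 44396852 to 44402968 (ENSMUSG00000032114), had 153, 133 and 150 CPM in the combination mice, 68.3, 71.2 and 96.2 CPM in cisplatin mice, 231, 258 and 285 CPM in dichloroacetate mice and 229, 274 and 269 CPM in saline mice. As with Fbp1, the groups without cisplatin overlapped and the injected groups stood apart. Cisplatin lowered it 3.27-fold (log2 -1.71, SE 0.12, adjusted p = 6.7e-08). The combination was 1.85-fold above cisplatin (adjusted p = 0.00013) and 1.77-fold below saline (adjusted p = 0.00013).

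Khk, which phosphorylates fructose at its first carbon, is on chromosome 5, 30921431 to 30931248 (ENSMUSG00000029162). It stood at 437, 381 and 433 CPM in the combination mice, at 234, 252 and 285 CPM in cisplatin mice, at 544, 546 and 572 CPM in dichloroacetate mice and at 503, 570 and 596 CPM in saline mice. It had the smallest fall of the 6, 2.17-fold for cisplatin against saline (log2 -1.12, SE 0.08, adjusted p = 7.5e-08), and of those 6 was nearest to saline in the combination (log2 -0.42, SE 0.08, adjusted p = 0.0012). The combination exceeded cisplatin by 1.62-fold (log2 0.70, SE 0.08, adjusted p = 4.1e-05). Counts per gene do not separate the A and C isoforms of ketohexokinase, which differ in a single exon and in their affinity for fructose.

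**Figure D2:**
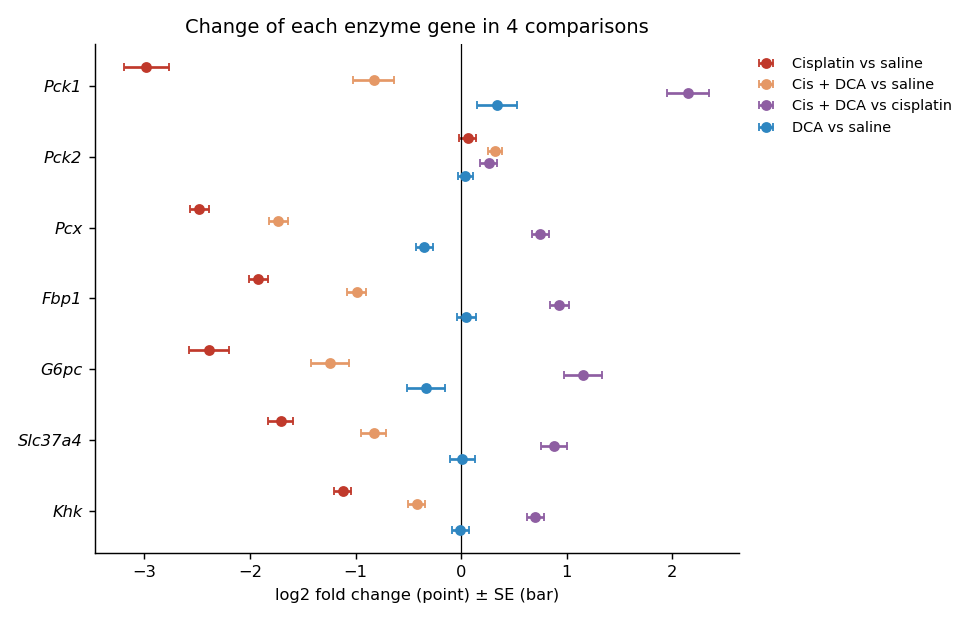
Log2 fold change (horizontal axis, points) with SE (bars) of each gene in cisplatin against saline, the combination against saline, the combination against cisplatin, and dichloroacetate against saline. Pck1 has the widest excursion, -2.98 for cisplatin against saline and 2.15 for the combination against cisplatin, and Pck2 stays between 0.04 and 0.32 in the comparisons drawn.

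Dichloroacetate alone called 0 of the 7 genes by edgeR, in a comparison where 0.309% of all genes were called. At an unadjusted p below 0.05 there was 1, Pcx (11.9% of all genes), which was also the 1 called by DESeq2 (2.34%), while limma on the normalised table called 0, against 51 of all genes. Pcx averaged 419 ± 33.7 CPM in dichloroacetate and 532 ± 27.3 CPM in saline mice (SD, n = 3 each; log2 -0.35, SE 0.08, adjusted p = 0.11, and 0.012 by DESeq2). G6pc, at 280 ± 7.71 CPM in dichloroacetate and 352 ± 24.6 CPM in saline mice, had -0.33 (SE 0.18, adjusted p = 0.49). For these 2 genes the groups did not overlap, which held for 16.0% of all genes. The log2 differences of the other 5 ran from -0.01 to 0.34, the top value being that of Pck1 (SE 0.19, adjusted p = 0.52).

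Set against dichloroacetate alone, which compares mice that had the same pretreatment, the combination was lower in 6 genes and higher in Pck2 (40.7% of all genes were called, 19.2% as lower and 21.5% as higher), and its mice overlapped those on dichloroacetate in none of the 7, against 52.8% of all genes without overlap. Pcx had -1.38 (SE 0.09, adjusted p = 4.5e-08), Pck1 -1.17 (SE 0.19, adjusted p = 0.00032), Fbp1 -1.03 (SE 0.09), G6pc -0.91 (SE 0.18), Slc37a4 -0.83 (SE 0.12) and Khk -0.41 (SE 0.08). Pck2 had 0.28 (SE 0.07, adjusted p = 0.0096). The cisplatin response was therefore smaller in mice on dichloroacetate for the 6 genes called for the interaction, with values of 1.82 (SE 0.27, adjusted p = 0.0007) for Pck1, 1.48 (SE 0.25) for G6pc, 1.09 (SE 0.12) for Pcx, 0.89 (SE 0.12) for Fbp1, 0.88 (SE 0.17) for Slc37a4 and 0.70 (SE 0.11) for Khk.

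Per kb of exon, Fbp1 had the highest mean of the 7 transcripts in every group, at 284 ± 17.2 CPM per kb in the combination, 148 ± 16.3 in cisplatin, 580 ± 31.1 in dichloroacetate and 562 ± 59.2 in saline mice (SD, n = 3 each). Pck1 followed in the saline mice at 394 ± 82.3 CPM per kb, then Khk at 310 ± 26.5, G6pc at 146 ± 10.2, Pcx at 112 ± 5.75, Slc37a4 at 90.0 ± 8.65 and Pck2 at 2.07 ± 0.155, and of these neighbours only Pck1 and Khk overlapped between libraries. In cisplatin mice Khk, at 143 ± 14.5 CPM per kb, overlapped Fbp1, and Pck1 had dropped to 49.8 ± 12.6. G6pc (27.8 ± 10.3), Slc37a4 (27.5 ± 5.36) and Pcx (20.1 ± 2.26) came next in those mice, and G6pc overlapped both of the others. In the combination mice Khk (232 ± 17.2) and Pck1 (221 ± 36.7) overlapped, followed by G6pc at 61.6 ± 7.29, Slc37a4 at 50.8 ± 3.80 and Pcx at 33.8 ± 2.35 CPM per kb. Pck2 was last there too, at 2.57 ± 0.120. In dichloroacetate mice Pck1 (497 ± 88.9) overlapped Fbp1, then came Khk (308 ± 8.74), G6pc (116 ± 3.19), and Slc37a4 (90.4 ± 9.43) overlapping Pcx (88.1 ± 7.09).

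Among the 3 cisplatin mice, replicate 3 had the highest level of all 7 genes, and its summed proximal tubule markers were also the highest, 4710 CPM against 3862 and 4033 CPM in the other 2. Leaving it out made the falls against saline deeper (log2 -3.20 for Pck1, -2.57 for Pcx, -2.00 for Fbp1, -1.88 for Slc37a4 and -1.20 for Khk) and ended no call of the 6. Saline replicate 1 was the lowest of its group in 5 of the 7 genes.

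The proximal tubule, the segment that houses the pathway, was followed with 12 marker genes. All 12 were detected, 0 rose and 12 fell with cisplatin against saline, the median being -2.06 against -0.01 over all genes tested. Their summed level was 7336 to 8101 CPM in the combination, 3862 to 4710 in cisplatin, 14440 to 15930 in dichloroacetate and 15100 to 16580 CPM in saline mice. In whole-kidney RNA, fewer proximal tubule cells and less of these transcripts per cell cannot be told apart. The falls of the 6 enzymes lie inside the range of the markers, from -3.74 for Gatm, which makes the creatine precursor, to -0.73 for the water channel Aqp1. For the combination against cisplatin all 12 markers were called higher, from 0.35 for Aqp1 to 1.36 for the endocytic receptor Cubn, with a median of 0.87, and Pck1 at 2.15 was above that range.

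A comparison added after the data were seen took each enzyme relative to the mean log2 CPM of the 12 markers in the same library. On this scale Pck1 was 0.80 ± 0.18 in the combination, -0.48 ± 0.18 in cisplatin, 0.99 ± 0.27 in dichloroacetate and 0.54 ± 0.29 in saline mice (log2, SD, n = 3 each). It thus fell below the markers with cisplatin by a further 1.02 log2 units, and in the combination mice it overlapped the saline mice, 2 of the 3 lying above all saline mice. Fbp1 differed from the markers' change by 0.05 between cisplatin and saline and by 0.05 between combination and cisplatin, with overlapping groups both times. Khk was higher relative to the markers by 0.85 in cisplatin than in saline mice, and Pck2 by 2.03. Pcx was lower by 0.51 in cisplatin and by 0.64 in combination mice than in saline mice, without overlap, whereas Slc37a4 was higher by 0.25 and 0.26. G6pc was at -1.99, -2.10 and -1.48 in cisplatin mice and at -1.34, -1.50 and -1.31 in saline mice, a difference of -0.48 in which the groups overlap through cisplatin replicate 3 alone (-0.66 without it). In the combination G6pc differed from saline by -0.16, with overlap. Between combination and cisplatin mice, Pck1 was higher relative to the markers by 1.28, without overlap. Pck2 (-0.63), Khk (-0.18) and Pcx (-0.13) were lower relative to the markers there, also without overlap. Slc37a4 (0.01) and G6pc (0.32) overlapped between those groups. These differences carry no test, and the share of the markers' change in that of the enzymes was not tested.

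**Figure D3:**
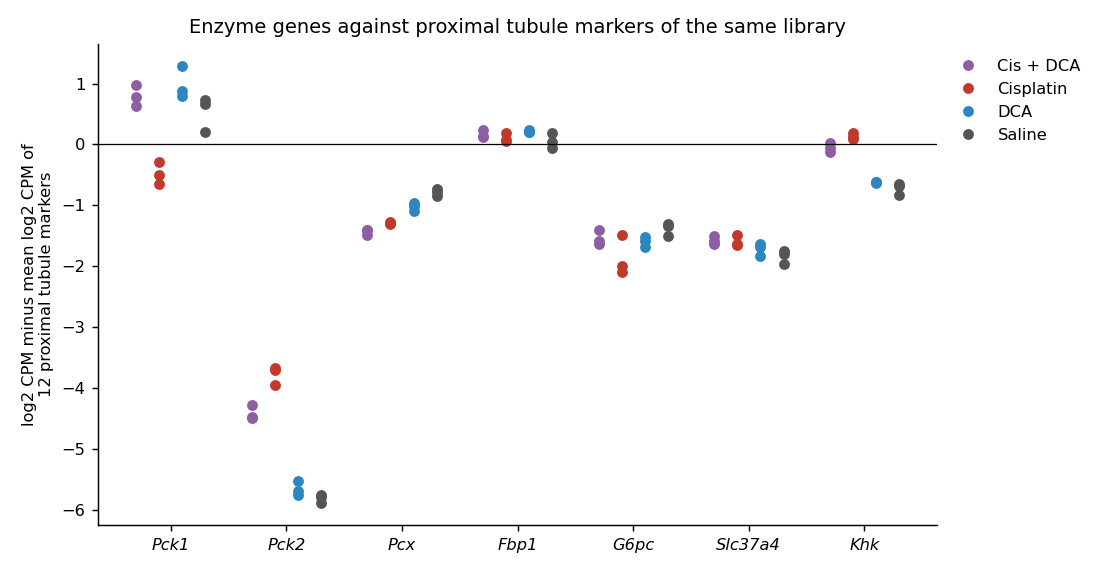
Log2 CPM of each enzyme minus the mean log2 CPM of 12 proximal tubule markers in the same library (vertical axis), 1 point per mouse. Fbp1 lies near 0 in all groups, Pck1 is lowest in the cisplatin mice, and in the combination mice it lies at 0.63 to 0.98, with 1 mouse within the saline values of 0.20 to 0.73 and 2 above them, and Pck2 and Khk are higher in the cisplatin-injected mice.

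Liver and fat also express Pck1, and their markers did not all move alike. Albumin (Alb) averaged 1.13 ± 0.267 CPM in the combination, 1.70 ± 0.565 in cisplatin, 0.947 ± 0.109 in dichloroacetate and 3.43 ± 2.56 CPM in saline mice, and the liver enzyme Tat averaged 0.0102 CPM in the combination, 0.0277 in cisplatin and 0.0256 CPM in saline mice and had no count in dichloroacetate mice. Of the 10 hepatocyte markers, 6 had enough counts to test, and Cyp2e1, which male mouse kidney also expresses, made up most of their summed 524 to 682 CPM in the combination, 428 to 480 in cisplatin, 2247 to 3171 in dichloroacetate and 1851 to 2295 CPM in saline mice. The fibrinogen chain gene Fga of that list averaged 31.6 ± 1.08 CPM in the combination, 76.8 ± 7.55 in cisplatin, 11.9 ± 0.811 in dichloroacetate and 13.3 ± 1.35 CPM in saline mice, a rise of 2.52 (SE 0.09, adjusted p = 7.9e-11) for cisplatin against saline. In that comparison 2 of the 6 hepatocyte markers tested rose, 3 fell and 1 was not called. Those that fell were Cyp2e1 (-2.54, SE 0.14), Apoa2 (-1.94, SE 0.63) and Alb (-1.03, SE 0.41). Adipoq, the adipocyte hormone adiponectin, averaged 0.347 CPM in the combination, 0.366 in cisplatin, 0.599 in dichloroacetate and 0.0839 CPM in saline mice. Its libraries were uneven, with 1.04, 0 and 0 CPM in the combination mice, so that mean rested on 1 library. Cisplatin mice had 0.0852, 0.386 and 0.625 CPM, and dichloroacetate mice 0.909, 0.0249 and 0.863 CPM. Of 6 adipocyte markers tested, 2 rose, 0 fell and 4 were not called in that comparison. Cidec, a lipid droplet protein gene, was among those that rose (3.69, SE 0.63, adjusted p = 0.00018), at 1.40 CPM in the combination, 2.48 in cisplatin, 0.660 in dichloroacetate and 0.187 CPM in saline mice. The fatty acid binding protein gene Fabp4, at 38.2 CPM in the combination, 40.7 in cisplatin, 45.3 in dichloroacetate and 46.3 CPM in saline mice, was not called (adjusted p = 0.36).

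Markers of other cell types changed beside the proximal ones. Of all genes, 60.1% were called for cisplatin against saline and 31.6% for the combination against cisplatin. Of 8 loop of Henle and distal tubule genes, 7 fell and 1 rose with cisplatin against saline (median -1.12), Egf with -2.84 (SE 0.19) and the thiazide-sensitive carrier gene Slc12a3 with -2.79 (SE 0.13) falling most. Their summed level was 1837 to 2874 CPM in the combination, 1945 to 2481 in cisplatin, 4691 to 5108 in dichloroacetate and 4933 to 5481 CPM in saline mice. Among 8 collecting duct markers 6 fell and among 8 podocyte and endothelial markers 6 fell, both with a median of -0.35, the endothelial receptor gene Kdr having -0.83 (SE 0.11). All 5 erythroid genes fell (-2.20 to -2.09). Of 8 immune markers tested, 4 rose, 3 fell and 1 was not called, and the macrophage lysosomal gene Cd68 had the largest rise, 4.00 (SE 0.24, adjusted p = 9.4e-09). The 3 falls were the macrophage genes Csf1r (-0.87, SE 0.10) and Adgre1 (-0.57, SE 0.22) and the leukocyte gene Ptprc (-0.38, SE 0.14). Between combination and cisplatin mice, 2 loop and distal markers rose and 1 fell, 3 collecting duct markers rose and 2 immune markers fell. The podocyte and endothelial markers, at -0.16 to 0.03, and the erythroid ones, at 0.08 to 0.31, had no call there. The part of these cell types in the enzymes' values was not tested.

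The other steps of gluconeogenesis were mostly reversible glycolytic reactions. Of 15 such genes, 4 rose, 8 fell and 3 were not called with cisplatin against saline, with a median of -0.28 against -0.01 over all genes. In that comparison 60.1% of all genes were called, 29.7% as higher and 30.4% as lower. The glycerol kinase gene Gk, through which glycerol enters, fell by 1.87 on the log2 scale (SE 0.13). Of the reversible steps, Eno1 (0.25, SE 0.06), Pgam1 (0.37, SE 0.07) and the mitochondrial transaminase Got2 (0.17, SE 0.05) rose, while Gapdh (-0.36, SE 0.06) and Pgk1 (-0.29, SE 0.06) fell. The broadly expressed phosphatase subunit G6pc3 had -0.28 (SE 0.06, adjusted p = 0.0016). In the combination against cisplatin, 8 of the 15 rose, 0 fell and 7 were not called by edgeR, and the median was 0.16 against 0.01 over all genes. There, 31.6% of all genes were called, 18.1% as higher and 13.5% as lower.

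**Figure D4:**
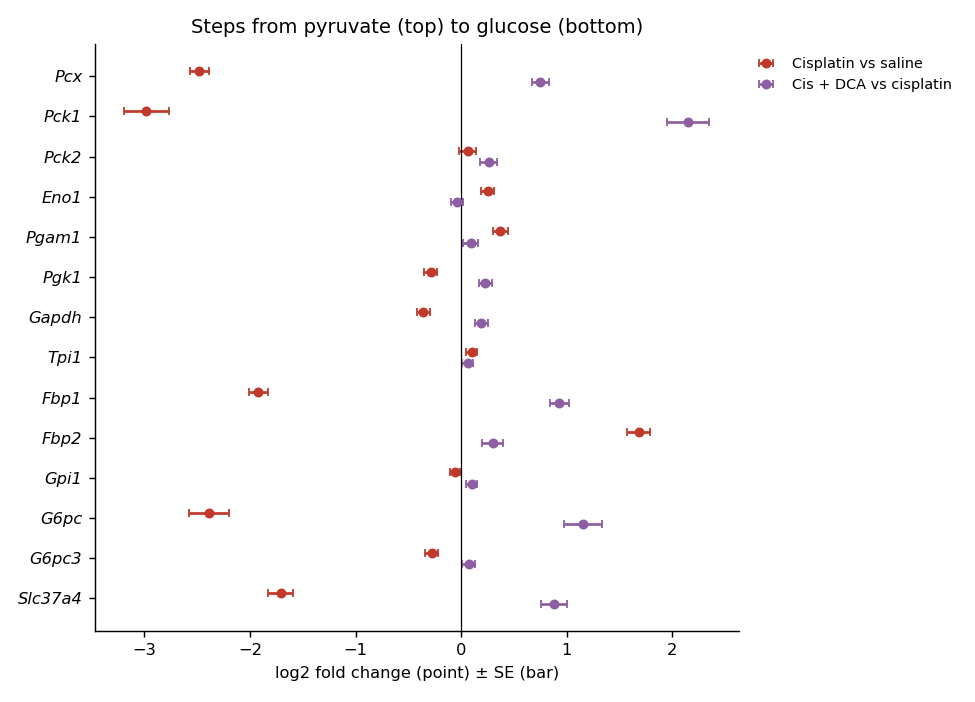
Log2 fold change (horizontal axis, points) with SE (bars) for enzymes in the order of the route from pyruvate, at the top, to glucose, at the bottom, for cisplatin against saline and for the combination against cisplatin. The large falls with cisplatin are at Pcx, Pck1, Fbp1, G6pc and Slc37a4, while the reversible steps from Eno1 to Tpi1 stay between -0.36 and 0.37 and Fbp2 lies at 1.68.

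Substrate entry was followed with 13 genes for glutamine, lactate and dicarboxylates, and 9 of them fell with cisplatin against saline, 2 rose and 2 had no call (median -0.75). Of all genes, 30.4% fell and 29.7% rose there. The sodium-coupled carriers Slc13a2 (-2.21, SE 0.10), Slc5a12 (-2.18, SE 0.16) and Slc13a3 (-2.10, SE 0.11) had the largest falls, Slc13a2 and Slc13a3 taking up dicarboxylates and Slc5a12 lactate. Slc5a12 also belongs to the 12 proximal tubule markers, so its value enters both lists. The mitochondrial dicarboxylate carrier Slc25a10 had -1.45 (SE 0.09) and glutamate dehydrogenase (Glud1) 0.20 (SE 0.08, adjusted p = 0.043). Between combination and cisplatin mice, 11 of the 13 rose, against 18.1% of all genes, led by Slc13a2 at 1.56 (SE 0.10).

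Around Khk, 10 genes of fructose and polyol metabolism gave 1 rise, 5 falls and 4 without a call for cisplatin against saline (median -0.22). Of all genes, 60.1% were called there, so the number of calls in this list is near that share. Sorbitol dehydrogenase (Sord), which forms fructose, averaged 290 ± 4.33 CPM in the combination, 158 ± 13.4 in cisplatin, 616 ± 22.5 in dichloroacetate and 590 ± 38.7 CPM in saline mice, a fall with cisplatin of 1.90 (SE 0.07, adjusted p = 1.1e-10). The fructose carrier Slc2a5 had -1.82 (SE 0.11). Tkfc, the triokinase of fructose breakdown, had -0.01 (SE 0.09, adjusted p = 0.92). In the combination against cisplatin 5 of the 10 rose, Sord by 0.88 (SE 0.07), and 1 fell, Akr1b3, aldose reductase, by 0.23 (SE 0.07, adjusted p = 0.031). The shares of all genes were 18.1% and 13.5%.

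Genes for the opposing glycolytic steps showed 4 rises, 2 falls and 7 without a call among 13 tested for cisplatin against saline. This is no larger a share of calls than the 60.1% over all genes. The pyruvate kinase gene Pklr averaged 56.1 ± 7.81 CPM in the combination, 92.0 ± 5.98 in cisplatin, 23.9 ± 1.47 in dichloroacetate and 27.04 ± 0.599 CPM in saline mice, differing by 1.77 on the log2 scale (SE 0.09, adjusted p = 1.7e-09) for cisplatin against saline and -0.71 (SE 0.08, adjusted p = 4.5e-05) for the combination against cisplatin. Pfkfb4 had 0.84 (SE 0.11) with cisplatin, and the phosphofructokinase gene Pfkm had -0.76 (SE 0.06).

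Of 26 regulators of gluconeogenic genes, 7 rose, 11 fell and 8 were not called with cisplatin against saline (median -0.04), and 11 rose, 7 fell and 8 were not called between combination and cisplatin mice. Over all genes, 60.1% were called in the first comparison and 31.6% in the second. Klf15, a glucocorticoid-induced factor of the fasting response, had -1.50 (SE 0.17), the tubule identity factor Hnf4a had -1.06 (SE 0.12), Ppara had -0.87 (SE 0.14) and the coactivator Ppargc1a had -0.80 (SE 0.10). In the combination against cisplatin Klf15 had 0.98, Hnf4a 0.82, Ppara 1.04 and Ppargc1a 0.55. Hnf4a averaged 612 ± 20.1 CPM in the combination, 346 ± 63.4 in cisplatin, 759 ± 103 in dichloroacetate and 724 ± 60.4 CPM in saline mice (SD, n = 3 each). Cebpb, a stress-responsive factor that binds the Pck1 promoter, was higher by 2.22 log2 units with cisplatin (SE 0.18, adjusted p = 2.2e-07) and had -1.12 (SE 0.18, adjusted p = 0.00031) in the combination against cisplatin. The kinase gene Pdk4 had 3.18 (SE 0.29). Among genes of hormone signalling, the insulin receptor gene Insr had -0.82 (SE 0.07, adjusted p = 2.4e-07) for cisplatin against saline, Irs1 -0.23 (adjusted p = 0.049), Creb1 0.21 (adjusted p = 0.0033) and its coactivator gene Crebbp 0.31 (adjusted p = 0.015). Others did not pass, with Foxo1 at -0.19 (adjusted p = 0.17), Crtc2 at 0.10 (adjusted p = 0.19), the glucocorticoid receptor Nr3c1 at 0.04 (adjusted p = 0.49) and Irs2 at 0.24 (adjusted p = 0.47).

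**Figure D5:**
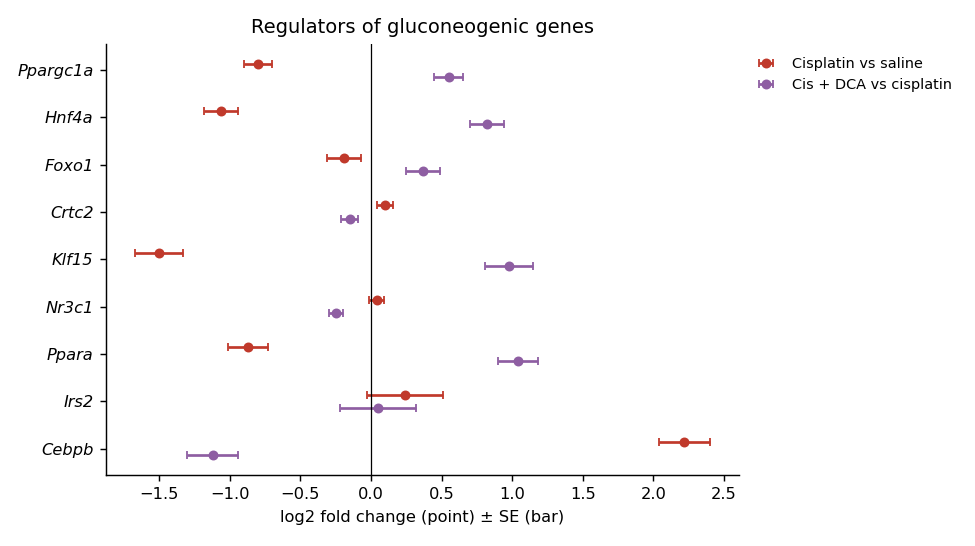
Log2 fold change (horizontal axis, points) with SE (bars) of 9 regulators of gluconeogenic genes, for cisplatin against saline and for the combination against cisplatin. Klf15, Hnf4a, Ppara and Ppargc1a lie below 0 with cisplatin and above 0 in the combination against cisplatin, and Cebpb lies at 2.22 and -1.12.

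Against saline, the combination had 5 rises and 7 falls among the 15 other steps, 2 and 8 among the 13 entry genes, 2 and 5 among the 10 fructose and polyol genes, 3 and 1 among the 13 glycolytic genes and 4 and 7 among the 26 regulators. Of all genes tested, 40.2% were called in this comparison, 20.6% as higher and 19.6% as lower. Hnf4a (-0.24, adjusted p = 0.12), Ppargc1a (-0.24, adjusted p = 0.071) and Ppara (0.17, adjusted p = 0.36) did not pass there, and Klf15 did (-0.52, adjusted p = 0.021).

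Across these pathway lists and the 7 genes, 82 genes were tested for dichloroacetate alone and 1 was called, Slc7a7, a basic amino acid carrier of the basolateral membrane, at -0.43 (SE 0.08, adjusted p = 0.041). This call rested close to the threshold. It was lost in 11 of the 12 edgeR fits with 1 library left out, where adjusted p ran from 0.049 to 0.11. At an unadjusted p below 0.05 there were 15, against 11.9% of all genes, and DESeq2 called 7, against 2.34% of the 15223 genes to which it gave an adjusted p.

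Genes with a pattern most like each enzyme were sought among 12363 other genes with a mean of at least 5 CPM, by the root mean square difference of the 3 log2 differences from saline. The closest to Pck1 were Ldlrad3 and the thyroid hormone receptor gene Thrb, at 0.243 and 0.257 log2 units, which makes Pck1 the least closely matched of the 7. Pcx was nearest to Miox, the inositol oxygenase of the proximal tubule (0.142), and Akap7 (0.146), G6pc to the tyrosine-breakdown enzyme gene Hpd (0.060) and Vwa2 (0.117), and Fbp1 to Sord (0.028) and the nuclear receptor gene Esrrg (0.050). Slc37a4 was nearest to Adhfe1 (0.014) and Haao (0.025), and Khk to the sodium-proton exchanger gene Slc9a2 (0.018) and Gstz1, the glutathione transferase that metabolises dichloroacetate (0.022). Pck2 was nearest to Dvl2 (0.015) and Aldh3b1 (0.020). Among the 7 themselves, the closest pair was Fbp1 and Slc37a4 (0.15), then Pcx and G6pc (0.28), and the farthest were Pck1 with Pck2 and Pcx with Pck2 (1.89 each). All genes share the same 12 libraries, so these distances are a description of 4 group means.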

How the data were processed

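RNA sequencing counts of 12 mouse kidneys (4 groups of 3) were analysed. Total RNA was DNase-treated and made into libraries with an Illumina TruSeq RNA kit, per the labels' protocols. Build mm10 and the tools TopHat, HTSeq, DESeq, Cufflinks, Trimmomatic and bedtools were used, per the submitters' processing notes, which give neither their versions nor their roles. What the authors deposited were whole-number counts per Ensembl gene, 1 column per library, and a deposited table of normalised signal equals the counts divided by 1 size factor per library (median-of-ratios factors recomputed from the counts, tolerance 1e-04). The second table served for an alternative only. Of 28991 identifiers, 27955 matched a symbol in GENCODE M21 (GRCm38, the assembly of mm10), which also gave positions and exon lengths.

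Genes passing filterByExpr (20370) were fitted with the edgeR 4.0.16 quasi-likelihood test in R 4.3.3 after TMM scaling, with 1 mean per group over all 12 libraries (8 residual degrees of freedom, biological coefficient of variation 0.092) and Benjamini-Hochberg adjustment. Precision is limited by the 3 mice per group more than by counting. The labels call the replicates biological. Replicate pairs differed by more than counting noise (chi-square per degree of freedom 4.6 to 28.2 over genes with at least 20 counts in the pair), so each library is 1 sample. The fitting code was tested on simulated data. Alternatives were RLE scaling, DESeq2 1.42.0, other filters, a replicate block, fits of the compared groups alone, limma 3.58.1 on log2(normalised value + 1) and leaving out each library.

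The 7 genes, the lists and the motifs were chosen with earlier results of these data known. Named genes were the 7, up to 3 called genes per pathway list with the largest change for cisplatin against saline, 10 fixed regulators, 2 nearest genes per enzyme and the first markers of each cell type list; others, such as Gapdh, Tkfc, Glud1, Slc25a10, Slc7a7, Insr, Fga, Cidec or Cd68, were named after their values were seen. Some genes that the rule names are not reported here.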

Additional observations from a re-analysis of the deposited data

Results flagged for a closer look

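No group exceeded 3 mice, so no single mouse was tested as standing apart. Agreement among the 6 genes below is not counted as independent support, since the genes share the same 12 libraries. The cisplatin response differed between mice with and without dichloroacetate for Pck1 (interaction 1.82 log2 units), G6pc (1.48), Pcx (1.09), Fbp1 (0.89), Slc37a4 (0.88) and Khk (0.70), each by the interaction term of the edgeR fit (adjusted p = 9.7e-05 to 0.0034, against 18.6% of all genes called). The proximal tubule markers moved with them, all 12 being called for the interaction with a median of 1.00, and their part in these values was not tested.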

How the results depend on the processing

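Over all alternatives, 785 of 791 values of the 7 genes kept their direction and their side of the threshold; 4 calls were lost (Pck2, combination against cisplatin, with 1 library left out) and 2 were gained (Pcx, dichloroacetate against saline). The number of enzymes called held within 1.5 times in the other comparisons and alternatives. Some calls named outside the 7 were lost in part of the 12 fits with 1 library left out. With cisplatin against saline this held for Irs1 in 8 fits, Glud1 in 5 and Crebbp in 3. Between combination and cisplatin mice it held for Fbp2 and Akr1b3 in 4 each, and between combination and saline mice for Klf15 in 3. For dichloroacetate against saline, 26 genes were higher and 37 lower over the whole table. DESeq2 gave 189 and 167, with 1 of the 7 lower; no low-count filter gave 55 and 64; the fit of the compared groups alone gave 6 and 9. Leaving out 1 library gave 5 to 72 higher and 7 to 54 lower. For the interaction it gave 1538 to 2607 genes higher, against 2327, the lowest without cisplatin replicate 1. The causes were not tested. The ratio of Pck2 to Pck1 differed by 2.91 to 3.23, -2.09 to -1.77 and -0.37 to -0.18 in its 3 comparisons with 1 library left out. Division by exon length shifts the log2 ratio of every library equally, so it cannot change these differences.

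Replicate numbers are shared between groups but nothing in the labels says that they pair the mice. Deviations of same-numbered libraries correlated at -0.10 to 0.19, and 6 of 12 libraries were closest to their own number, so the mice were not treated as paired. With the replicate block, dichloroacetate against saline gave 56 genes higher and 61 lower, with 1 of the 7, Pcx, lower (log2 -0.35, adjusted p = 0.020); no other call among the 7 changed.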
